A study of Mus musculus with 6 samples.

Results

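The growth hormone and prolactin (lactogen) response genes were described in pancreatic islets of mice whose labels give a pancreas-specific deletion of Ppard, the gene of the fatty acid-activated nuclear receptor PPARβ, and of their littermates. The set was given as 10 genes by role. These are the receptor genes Prlr and Ghr, the transcription factor genes Stat5a and Stat5b, the feedback inhibitor genes Socs2 and Cish, the repressor gene Bcl6, and the lactogen-responsive islet genes Matn2, Ivd and Tnfrsf11b. Every probe set with one of these as its only platform symbol was taken, which gave 22 of 45037 probe sets and 9 of the 10 genes. Prlr was not analysed here, because no probe set carries its name in the platform annotation used. The genes were chosen by role and on their differences in this same comparison, known from earlier results, so the values below are a description, and the calls among them are no independent support for the set.

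RNA was measured on 1-colour Affymetrix mouse arrays from 3 mice with floxed Ppard alleles and the Cre recombinase transgene (Pdx1Cre;PPARbetafl/fl, "labelled knockout" below) and from 3 littermates with the floxed alleles and no Cre (PPARbetafl/fl, "control"). All 6 mice were 8 weeks old on a mixed SV 129 and C57BL/6 background, and each array is a different animal. The Pdx1 promoter that drives Cre is active across the developing pancreas, and the label of the material is beta-cells although the protocol describes whole islets. None of the 6 arrays came from a mouse with Cre and unfloxed Ppard, so the deletion and the transgene cannot be told apart in any difference below.

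Prolactin, placental lactogen and growth hormone bind single-pass receptors of the class I cytokine family, PRLR and GHR. The bound receptor activates the tyrosine kinase JAK2, which phosphorylates STAT5A and STAT5B, and these move to the nucleus and switch on target genes through paired TTC and GAA half-sites. SOCS2 and CISH are encoded by such targets and dampen the receptor in a feedback loop. In islets this pathway is best known from pregnancy, when beta cells multiply and make serotonin.

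The motif letters of the STAT half-sites are shown for the members with a RefSeq promoter window that holds them. The windows (assembly GRCm38.p6) run from 250 bases before to 50 bases after an annotated start. TTCNNNGAA, which reads the same on both strands, was searched with overlaps allowed. Of the 9 measured genes, 6 had a window (Ghr, Stat5a, Stat5b, Cish, Bcl6 and Ivd). Their 10 windows held the motif in 4 cases, against 8.30% of all 32851 windows. In Cish, 2 matches lay at bases 251 to 259 and 262 to 270 of the window, just past the start (chr9:107296654-107296683, plus strand), and 0.457% of all windows hold 2 or more. In Ivd a single match lay before the start (chr2:118861861-118861959, plus strand). A Bcl6 window held 3 matches (chr16:23981348-23981466, minus strand), as 0.0335% of all windows do, and the window of another Bcl6 start held 1. Capitals mark the matches, each stretch reads 5′ to 3′, and a match is a stretch of letters, not a shown binding site.
Cish: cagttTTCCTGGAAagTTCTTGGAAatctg
Ivd: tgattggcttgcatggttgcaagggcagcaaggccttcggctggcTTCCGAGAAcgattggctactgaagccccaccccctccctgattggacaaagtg
Bcl6: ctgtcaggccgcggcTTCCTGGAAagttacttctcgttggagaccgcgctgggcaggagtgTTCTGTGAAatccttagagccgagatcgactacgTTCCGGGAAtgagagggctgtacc

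The arrays were alike in scale, with median log2 values from 5.39 to 5.49 and pairwise correlations over probe sets from 0.978 to 0.993. They differed in exocrine RNA: the mean log2 level of 14 measured acinar markers (of 18 listed) was 7.18, 11.39 and 11.33 in controls (arrays 1 to 3, in this order throughout) and 8.95, 5.95 and 6.06 in those labelled knockout. The beta cell genes Ins2 and Iapp lay at log2 13.71 or above on every array. Ppard itself stood no lower with Cre than without, at 7.75, 7.56 and 7.12 in controls and 8.01, 8.20 and 7.70 in arrays labelled knockout on the brighter of 2 probe sets. The other read 5.57, 5.47 and 5.47 against 5.97, 5.84 and 5.73, without overlap. Both had higher means in the arrays labelled knockout, by 0.49 and 0.35 on the log2 scale, and neither passed an adjusted p under 0.05 (limma). No deleted exon is stated, so these probe sets may lie outside the deleted part and then check nothing, and the genotype rests on the labels.

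The feedback inhibitors and the lactogen-responsive islet genes were higher in the arrays labelled knockout, while the receptor and STAT5 genes were level or slightly lower. Of the 22 probe sets, 9 rose at an adjusted p under 0.05 (limma, Benjamini-Hochberg over all 45037 probe sets), 0 fell and 13 did not pass. Over all probe sets 0.897% passed, 0.713% higher and 0.184% lower. At an unadjusted p under 0.05 in the same fit, 13 of the 22 were higher and 2 lower, against 7.09% and 5.82% of all probe sets. By gene, Socs2, Cish, Matn2, Ivd and Tnfrsf11b had at least 1 probe set that rose, and Ghr, Stat5a, Stat5b and Bcl6 had none. With each gene read on its brightest probe set, 4 of 9 genes rose, against 0.852% of 18193 genes (1.10% in either direction). The groups did not overlap in 13 of the 22 probe sets with higher and 2 with lower values in the arrays labelled knockout, where 10.1% and 8.85% of all probe sets (19.0% together) did so. The median difference was 1.24 for these 9 genes and 0.0020 for all genes, on the log2 scale.

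**Figure D1:**
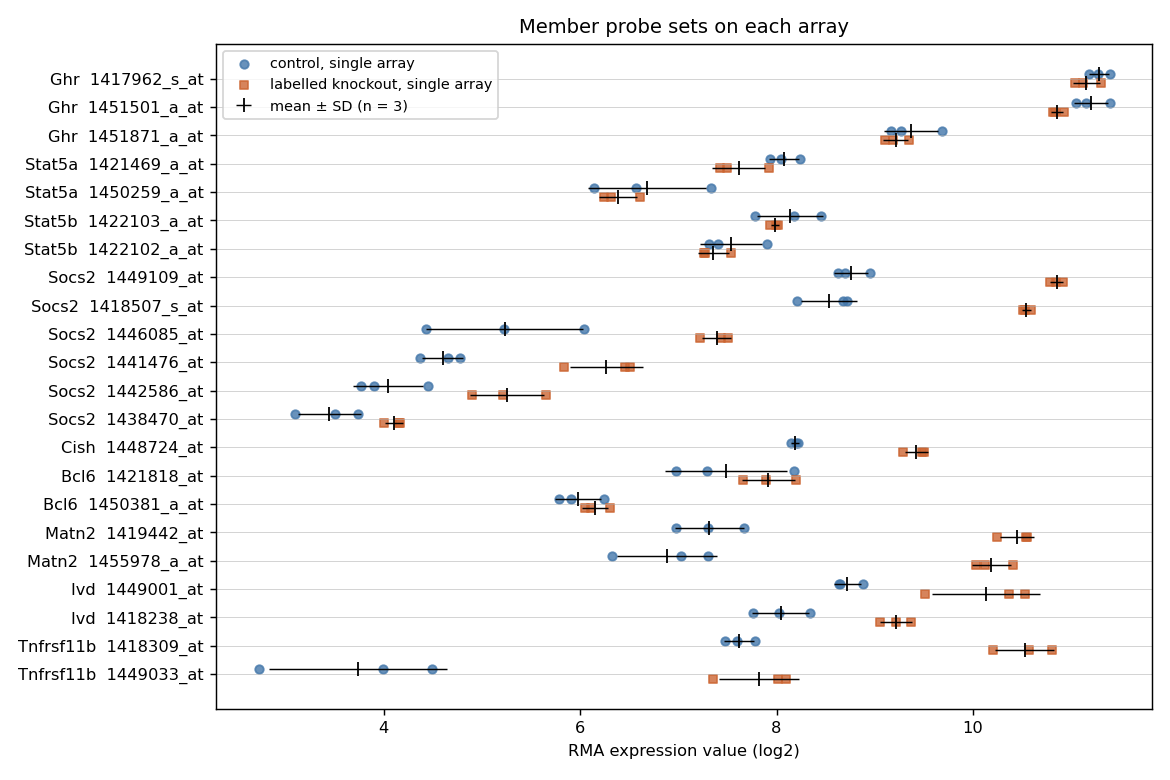
RMA expression values (log2, horizontal axis) of the 22 probe sets on each of the 6 arrays, with circles for controls, squares for arrays labelled knockout, and black ticks and bars for mean ± SD (n = 3 each). All squares of Socs2, Cish, Matn2, Ivd and Tnfrsf11b lie to the right of all circles of the same probe set, and those of Ghr, Stat5a, Stat5b and Bcl6 overlap the circles or lie to their left.

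Ghr, the growth hormone receptor, was read by 3 probe sets. On 1417962_s_at the values were 11.39, 11.18 and 11.27 in controls and 11.12, 11.04 and 11.31 in the arrays labelled knockout, so the groups overlapped. The difference, arrays labelled knockout minus control as throughout, was -0.13 ± 0.12 (SE) on the log2 scale, with a 95% interval from -0.41 to 0.16. On 1451501_a_at the values were 11.39, 11.05 and 11.15 against 10.84, 10.81 and 10.92. Here every array labelled knockout lay below every control, by a difference of -0.34 ± 0.12 that did not pass (adjusted p = 0.320). The third, 1451871_a_at, differed by -0.16 ± 0.16 with overlapping groups, and by -0.0027 without control 1. The interval of 1451501_a_at ran from -0.64 to -0.049 and that of 1451871_a_at from -0.54 to 0.23. Only 1451501_a_at was thus lower at an unadjusted p under 0.05 in the limma fit, and no Ghr probe set passed after adjustment. A modest loss of Ghr is not settled at this number of arrays.

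Stat5a and Stat5b encode the closely related transcription factors that carry the receptor signal to DNA. Stat5a on 1421469_a_at read 8.24, 7.94 and 8.05 in controls and 7.50, 7.42 and 7.92 in the arrays labelled knockout. The groups did not overlap, by a margin of 0.014 between array 3 labelled knockout and control 2, and the difference of -0.46 ± 0.17 did not pass (adjusted p = 0.317). Its interval, before adjustment, ran from -0.85 to -0.069. The other Stat5a probe set, 1450259_a_at, read 7.33, 6.14 and 6.57 against 6.24, 6.60 and 6.31 and overlapped. Stat5b on 1422103_a_at read 8.45, 7.78 and 8.17 against 8.02, 7.99 and 7.93, and the values of the arrays labelled knockout all fell inside the control range. Its second probe set, 1422102_a_at, read 7.90, 7.31 and 7.40 against 7.27, 7.26 and 7.54. The Stat5b differences were -0.16 ± 0.18 and -0.18 ± 0.18, with intervals from -0.57 to 0.26 and from -0.61 to 0.25. Without control 1 the second Stat5a probe set differed by 0.029 and the Stat5b probe sets by 0.0035 and 0.0019, so the negative sign of these 3 rests on that array.

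Socs2, whose product targets the growth hormone receptor for degradation, rose about 4-fold on its brighter probe sets. On 1449109_at it read 8.70, 8.95 and 8.63 in controls and 10.79, 10.92 and 10.85 in the arrays labelled knockout. The lowest array labelled knockout stood 1.84 above the highest control, and the arrays labelled knockout differed among themselves with an SD of only 0.065. The rise was 2.09 ± 0.12 or 4.27-fold (adjusted p = 0.00123). On 1418507_s_at, which read 8.67, 8.72 and 8.21 against 10.53, 10.59 and 10.50, it was 2.01 ± 0.16 or 4.02-fold (adjusted p = 0.00349).

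The other 4 Socs2 probe sets were dimmer, and their groups did not overlap either. 1441476_at read 4.37, 4.78 and 4.65 against 5.84, 6.46 and 6.50 and rose by 1.66 ± 0.21 (adjusted p = 0.0211). That call was lost without control 2 (adjusted p = 0.0528), control 3 (0.100), array 2 (0.0989) or array 3 labelled knockout (0.0803), with the acinar level of each array as a covariate (0.164) and with control 1 as the sole control (0.135). 1446085_at read 4.44, 6.04 and 5.23 against 7.22, 7.51 and 7.44, a difference of 2.16 ± 0.37 that did not pass (adjusted p = 0.0591). It passed in 6 of the 14 alternatives run, among them without control 1 (adjusted p = 0.0331), without control 2 (0.0205) and with control 1 as the sole control (0.0281). 1442586_at differed by 1.21 ± 0.25 and 1438470_at by 0.66 ± 0.17, and neither passed. The last of these had the lowest values of the 6, between 3.10 and 4.17 on all arrays, under the array medians. RMA values carry no detection call, so how much of such a value is background is unknown, and the 6 differences are not 6 readings of one fold.

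Cish, whose product blocks STAT5 docking on the activated receptor, had a single probe set. It read 8.19, 8.22 and 8.14 in controls and 9.29, 9.50 and 9.48 in the arrays labelled knockout. The SD of the controls was 0.039, and the lowest array labelled knockout stood 1.07 above the highest control. Cish rose by 1.24 ± 0.11 or 2.36-fold (adjusted p = 0.00476). The call was lost with the acinar level of each array as a covariate (1.17 ± 0.15, adjusted p = 0.0578). It was lost too when only control 1 was kept (1.23, adjusted p = 0.105). Cish carries the paired motif letters printed above.

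Bcl6 encodes a transcriptional repressor whose gene STAT5 is known to repress in several cell types. On 1421818_at it read 8.18, 6.98 and 7.29 in controls and 8.20, 7.89 and 7.66 in the arrays labelled knockout. Control 1 stood with the arrays labelled knockout, and the difference of 0.43 ± 0.31 had an interval from -0.30 to 1.17. On 1450381_a_at the difference was 0.17 ± 0.15 with overlapping groups. Against control 1 alone the differences turned to -0.26 and -0.091, so Bcl6 has no settled direction here. Its window with 3 motif matches is the richest of the members printed above.

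Matn2 encodes matrilin-2, a protein of the extracellular matrix, and Tnfrsf11b encodes osteoprotegerin, the secreted decoy receptor of the cytokine RANKL. On their brighter probe sets the intervals of the difference ran from 2.67 to 3.59 for Matn2 and from 2.49 to 3.32 for Tnfrsf11b, against 1.80 to 2.38 for Socs2, and whether the genes differ in this was not tested. Matn2 on 1419442_at read 7.67, 6.97 and 7.30 in controls and 10.24, 10.55 and 10.54 in the arrays labelled knockout, a rise of 3.13 ± 0.19 (adjusted p = 0.00149). Its other probe set, 1455978_a_at, read 7.31, 6.32 and 7.03 against 10.03, 10.12 and 10.41 and rose by 3.30 ± 0.26 (adjusted p = 0.00349). The folds of 8.76 and 9.84 on these probe sets are close to each other. Against control 1 alone, the control with the highest Matn2 values, the rises were 2.77 and 2.88.

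Tnfrsf11b on 1418309_at read 7.47, 7.60 and 7.78 in controls and 10.57, 10.80 and 10.20 in the arrays labelled knockout. It rose by 2.91 ± 0.18 or 7.50-fold (adjusted p = 0.00130). On 1449033_at it read 2.73, 4.49 and 4.00 against 8.02, 8.10 and 7.36, a rise of 4.09 ± 0.45 or 17.0-fold (adjusted p = 0.0116). Control values on this probe set were dim and spread over more than 1 log2 unit, so its fold is less certain than that of the brighter one. Its call was lost without control 3 (adjusted p = 0.0603), array 1 (0.0658) or array 2 labelled knockout (0.0692). Both probe sets placed array 3 labelled knockout lowest in its group. The call of 1418309_at was lost only against control 1 alone (3.05, adjusted p = 0.0510), among the 14 alternatives run.

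Ivd encodes isovaleryl-CoA dehydrogenase, a mitochondrial enzyme of leucine breakdown. On its brighter probe set, 1449001_at, it read 8.88, 8.64 and 8.64 in controls and 10.53, 10.37 and 9.51 in the arrays labelled knockout. The difference of 1.41 ± 0.27 did not pass (adjusted p = 0.0769). On 1418238_at it read 8.02, 8.34 and 7.76 against 9.22, 9.05 and 9.37 and rose by 1.17 ± 0.17 or 2.25-fold (adjusted p = 0.0368). The probe sets ranked array 3 labelled knockout in opposite places, lowest on the first and highest on the second. Without array 3 labelled knockout the first differed by 1.73 and passed (adjusted p = 0.0161), and without control 1, control 3 or any 1 array labelled knockout the second no longer passed (adjusted p from 0.0567 to 0.154). Its adjusted p was also 0.214 in the fit with the acinar covariate and 0.127 with control 1 as the sole control.

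**Figure D2:**
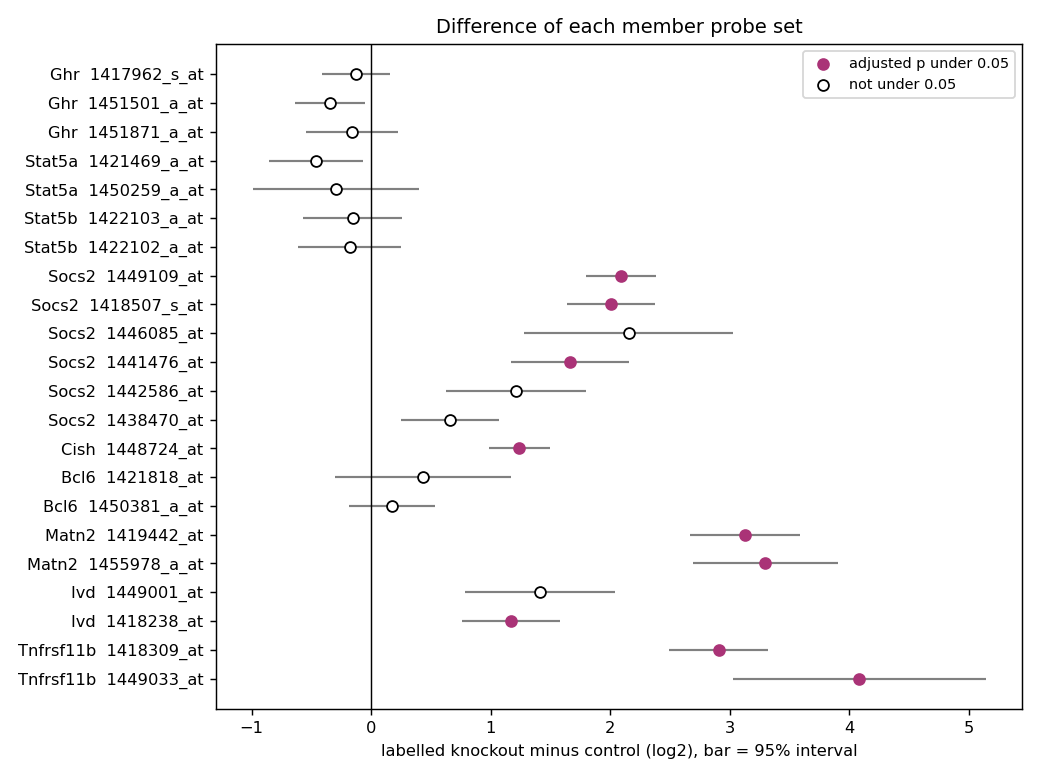
Difference of each of the 22 probe sets (arrays labelled knockout minus control, log2, horizontal axis) with its 95% interval from the limma fit, filled where the adjusted p was under 0.05. Differences run from -0.46 (Stat5a) to 4.09 (Tnfrsf11b), and the 9 filled points all lie at 1.17 or above.

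For all 9 probe sets of Ghr, Stat5a, Stat5b and Bcl6, control 1 was the highest control, as it was for 38.8% of all probe sets. For the 13 probe sets of the other genes, control 1 was the highest control in 3 and the lowest in 6, and control 2 the highest in 9, where 35.2% of all probe sets had control 1 lowest and 30.9% had control 2 highest. This grouping of genes was made after the values were seen. Control 1 also had the lowest acinar level of the controls, and the part of exocrine RNA in the small differences of these genes was not tested beyond a fit with the acinar level as a covariate. There, on their brightest probe sets, Ghr differed by -0.22 ± 0.16, Stat5a by -0.64 ± 0.21 and Stat5b by -0.37 ± 0.21, and Bcl6 by 0.076 ± 0.38. None passed.

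The leading rises stayed past the threshold in the same fit. With the acinar covariate Socs2 rose by 2.11 ± 0.18, Matn2 by 2.77 ± 0.17 and Tnfrsf11b by 3.03 ± 0.24 on the brightest probe sets, all 3 past the threshold. Against control 1 alone, whose acinar level lay inside the range of the arrays labelled knockout, they differed by 2.15, 2.77 and 3.05, and Socs2 and Matn2 passed. Of the 9 rises, 6 stayed past the threshold with the acinar covariate and 5 against control 1 alone, where Socs2 1446085_at passed as well.

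**Figure D3:**
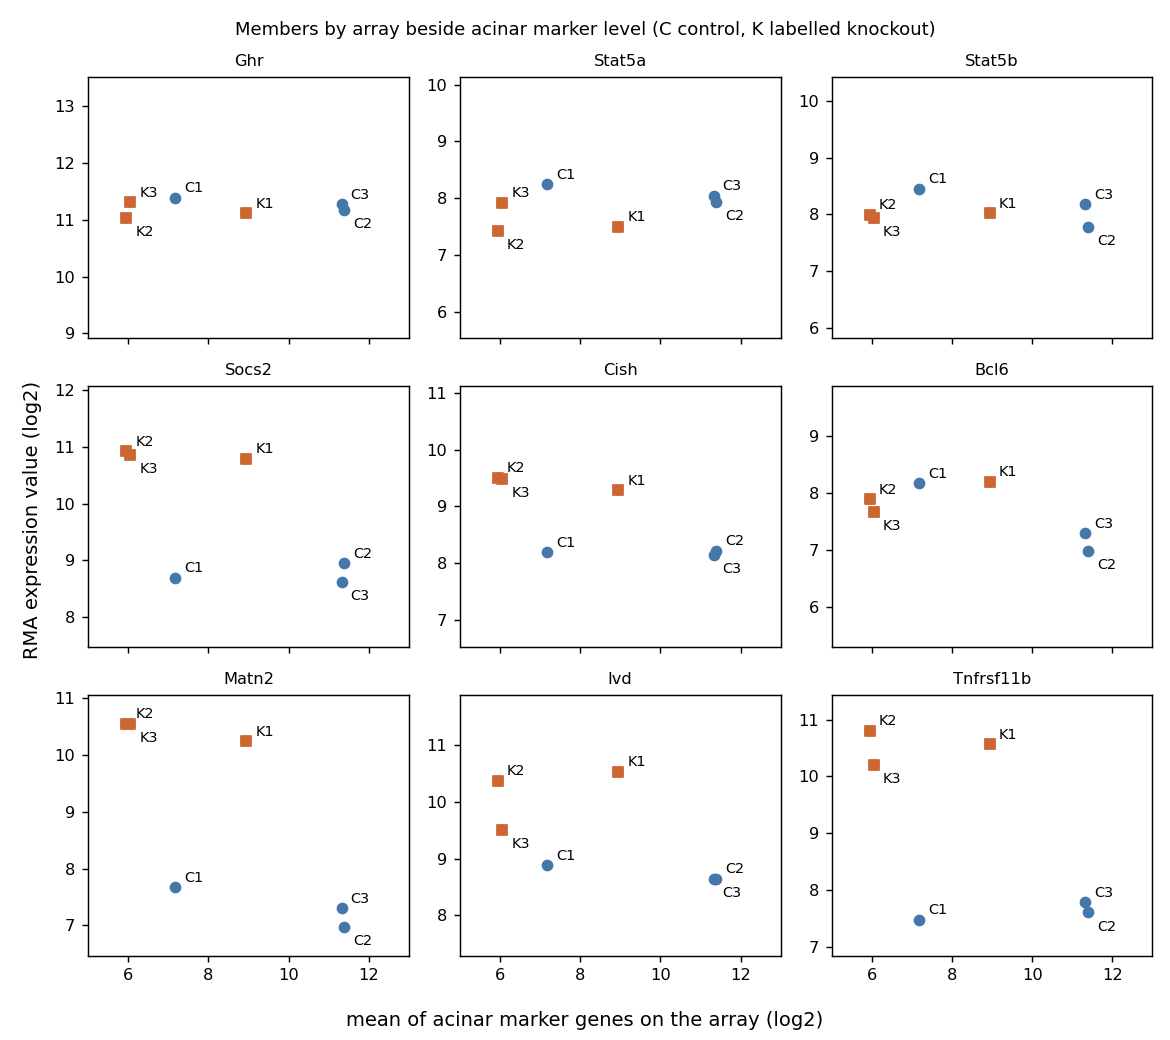
Log2 value of the brightest probe set of each of the 9 genes (vertical axes, each spanning the same number of log2 units) against the mean log2 level of 14 acinar markers (horizontal axis) on the 6 arrays, C for control and K for labelled knockout. For Socs2, Cish, Matn2 and Tnfrsf11b the control with little acinar RNA (C1, at 7.18) lies near the other controls, while for Bcl6 it lies beside the arrays labelled knockout.

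Markers of the cell types in the preparation were read on the same arrays, and 3 of them passed the threshold (Slc30a8, Rbp4 and Cftr), none of them acinar. The mean of 7 measured beta cell markers lay between 11.83 and 12.15 in controls and between 11.57 and 11.82 in the arrays labelled knockout, with 5 of 7 lower and Slc30a8 past the threshold. That of 4 alpha cell markers lay between 10.58 and 10.67 against 10.22 and 10.34, with 4 of 4 lower and none past it. The mean of 5 delta and PP cell markers lay between 12.02 and 12.27 in controls and between 11.52 and 11.64 in the arrays labelled knockout, with 5 of 5 lower and Rbp4 past the threshold. The mean of 9 immune markers lay between 5.10 and 5.23 against 5.25 and 5.40, with 6 of 9 higher and none past the threshold. That of 3 adipocyte markers lay between 4.95 and 5.24 against 5.36 and 5.52, with none past the threshold. Of these, Fabp4 differed by 0.99, while Lep (0.10) and Adipoq (0.0018) were dim and overlapped. That of 8 endothelial markers overlapped (7.23 to 8.03 against 7.71 to 7.89), as did that of 8 fibroblast markers (4.93 to 5.78 against 5.28 to 5.61). Of 5 measured duct markers, Cftr rose. The other 4 overlapped between the groups, with differences from -2.10 (Krt19) to -0.0028 (Krt7). The mean of the duct markers overlapped too (6.89 to 7.83 against 7.55 to 7.69). In whole islets a smaller number of cells of a type and less RNA per cell cannot be told apart, and the part of these markers in the members' differences was not tested.

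The other genes of the pathway were listed from general knowledge of it, with earlier results of these data known. The counts below are therefore a description and no independent support for the pathway. Of 81 listed, 72 were measured, 4 rose, 0 fell and 68 did not pass, where 0.852% of all genes rose and 0.247% fell. At an unadjusted p under 0.05 in the same limma fit, 9 were higher and 9 lower, against 8.37% and 5.58% of all genes. None of the 4 measured genes of the ligand list, which also holds Igf1, passed, and Igf1 was lower at an unadjusted p under 0.05. Prl3d1, Prl3b1 and Prl2c2 were listed too but not measured, so placental lactogen was not read. Gh, the growth hormone gene, read 5.35, 5.05 and 5.44 in controls and 5.46, 5.25 and 5.42 in the arrays labelled knockout (0.097 ± 0.14). Its sign turned without control 2 (-0.017). The other Gh probe sets were dimmer, overlapped between the groups and differed by -0.043, -0.072 and -0.14. Prl, the prolactin gene, stayed between 2.76 and 3.35 on all arrays (-0.021 ± 0.18), near the dim end of the scale. The placental Prl8a9 differed by -0.26 ± 0.13. Igf1, the growth factor that growth hormone induces in liver, read 5.69, 6.56 and 6.75 against 5.24, 4.97 and 5.19, and the difference of -1.20 ± 0.27 did not pass (adjusted p = 0.128). The Igf1 difference was -0.68 ± 0.22 with the acinar covariate and -0.56 against control 1 alone. It passed only without control 1 (-1.52, adjusted p = 0.00939). The other Igf1 probe sets were dim and differed by -0.0070, -0.032 and 0.17.

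The kinases, other STATs, other brakes and adaptors showed no call in the limma fit on their brightest probe sets. There, 1 of 33 genes was higher and 2 lower at an unadjusted p under 0.05, where 8.37% and 5.58% of all genes were. Among 8 JAK and other STAT genes the smallest p belonged to Jak3 (0.35 ± 0.19), Stat3 (0.20 ± 0.11) and the interferon-pathway factor gene Stat2 (0.56 ± 0.32, and -0.11 against control 1 alone). Jak2, the kinase of both receptors, differed by 0.033 ± 0.11, with an interval from -0.22 to 0.29. Of 16 other SOCS genes, phosphatases and inhibitors, Ptpn6, the phosphatase SHP-1 (0.45 ± 0.12), Pias3 (-0.45 ± 0.14) and Socs4 (-0.20 ± 0.15) led and none passed. The related inhibitor Socs3, named after its values were seen, read 8.82, 9.58 and 8.84 against 9.17, 9.57 and 9.34. Among 9 adaptor genes Gab1 (-0.44 ± 0.11), Src (0.39 ± 0.17) and Irs1 (-0.19 ± 0.14) led and none passed. Dimmer probe sets of Gab1 differed by -0.63 ± 0.13 and -0.35 ± 0.19, and one of Src by 0.60 ± 0.14. None of these passed either.

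The 4 rises outside the set were Csf2rb (related receptors), Tph1 and Ehhadh (other lactogen-linked islet genes) and Igfals (STAT5 targets of other tissues). The groups are those of the lists, and whether a lactogen or STAT5 acts on these genes here was not tested. Csf2rb encodes the shared beta chain of the receptors for GM-CSF, IL-3 and IL-5, which also signal through JAK2 and STAT5. It read 4.71, 5.41 and 4.49 in controls and 6.89, 8.48 and 7.42 in the arrays labelled knockout, a rise of 2.73 ± 0.42 (adjusted p = 0.0436) that was lost without any 1 of the 6 arrays (adjusted p from 0.0572 to 0.173), with the acinar covariate (0.269) and against control 1 alone (0.194). Its second probe set, named after its values were seen, read 4.19, 4.67 and 4.23 against 7.70, 8.32 and 8.02 and rose by 3.65 ± 0.20 (adjusted p = 9.79e-04). The next related receptor genes, Il2ra (0.35 ± 0.18) and Il7r (0.39 ± 0.21), did not pass. The serotonin enzyme gene Tph1 read 3.72, 3.81 and 4.04 in controls and 8.87, 10.24 and 8.97 in the arrays labelled knockout. Its control values lay under the array medians, so the size of its fold is uncertain. Tph1 rose by 5.50 ± 0.36 (adjusted p = 0.00179), and Ehhadh, a peroxisomal enzyme gene of fatty acid oxidation, by 2.07 ± 0.15 (adjusted p = 0.00289). Both calls were lost with control 1 as the sole control, at 5.64 (adjusted p = 0.0690) and 1.90 (adjusted p = 0.0826). Tph2, at 1.70 ± 0.30, did not pass (adjusted p = 0.0631), though it did in 5 of the 14 alternatives run.

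Among STAT5 targets described in other tissues, Igfals was the 1 of 10 that rose. It encodes the acid-labile subunit that holds IGF in the circulation and is known as a growth hormone target of the liver. It read 7.49, 6.73 and 7.00 in controls and 8.57, 8.74 and 8.53 in the arrays labelled knockout, a rise of 1.54 ± 0.20 (adjusted p = 0.0228). The call was lost without control 3 or any 1 array labelled knockout (adjusted p from 0.0846 to 0.115), and with the acinar covariate (1.22 ± 0.20, adjusted p = 0.127). Gadd45g (0.61 ± 0.19) and Serpina3n (1.08 ± 0.36) did not pass. Serpina3n was 0.20 against control 1 alone. At an unadjusted p under 0.05 (limma), 4 of the 14 other lactogen-linked islet genes were higher and 6 lower. The shares of all genes were 8.37% and 5.58%. The higher ones were Tph1, Ehhadh, Tph2 and Bcl2l1, and the lower ones Cdkn1b, Ccnd1, Ccnd2, Birc5, Mki67 and Slc2a2. Slc2a2, named after its values were seen, differed by -0.62 ± 0.25. Of the cell cycle and survival genes on the lactogen list, none passed. Their differences ran from -0.58 ± 0.13 for the cell cycle inhibitor gene Cdkn1b to 0.49 ± 0.15 for the survival gene Bcl2l1, with Ccnd1 at -0.46, Birc5 at -0.43, Mki67 at -0.41, Ccnd2 at -0.31 and Foxm1 at 0.025, all named after their values were seen.

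**Figure D4:**
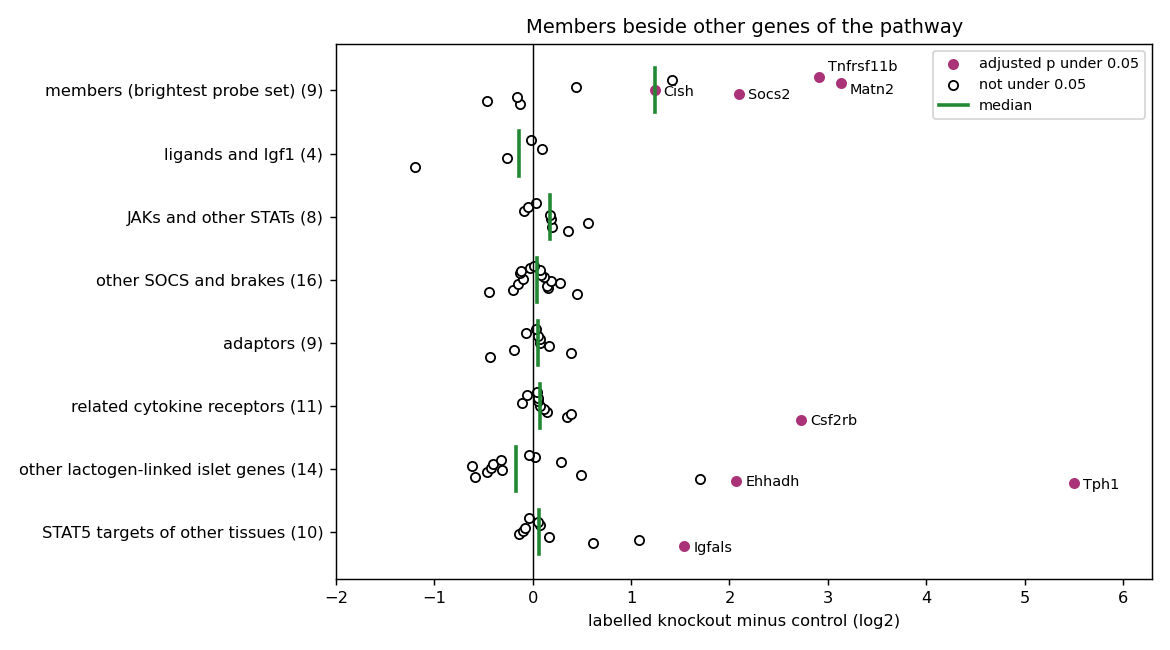
Differences (arrays labelled knockout minus control, log2, horizontal axis) of the 9 measured members on their brightest probe sets and of 72 other pathway genes in 7 groups, with the number measured in brackets, a green bar at each group's median, and filled points with gene names where the adjusted p was under 0.05. Outside the members, Tph1, Ehhadh, Csf2rb and Igfals are the filled points, and the group medians lie between -0.18 and 0.18.

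The genes whose log2 profile over the 6 arrays lay closest to that of Socs2, each centred on its own mean, were Cpxm2, Efna5, Palld, Ehhadh and Slc2a13. Their root mean square distances from Socs2 ran from 0.144 to 0.180 log2 units, over 18193 genes on their brightest probe sets. Genes named only by a clone or predicted-gene identifier were passed over in this ranking, so some may lie as close. Cpxm2 read 3.50, 3.72 and 3.57 in controls and 5.83, 5.75 and 6.03 in the arrays labelled knockout. Efna5, an ephrin ligand gene, read 7.53, 7.29 and 7.33 against 9.54, 9.55 and 9.46. Palld, an actin-binding protein gene, differed by 2.32 ± 0.15, and Slc2a13, a myo-inositol transporter gene, by 2.26 ± 0.16. The measure takes in size as well as shape, so genes with a larger difference, such as Matn2, lie farther from Socs2 under it.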

How the data were processed

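Per the submitters' processing notes the arrays were processed with RMA, without a version, and the deposited values are the authors' log2 expression values per probe set. No scanner files were used here, so detection calls and scan batches were not analysed. From these values, 64 manufacturer control probe sets were left out and 45037 were fitted with limma 3.58.1 in R 4.3.3 (group as the only term, eBayes, two-sided), with Benjamini-Hochberg adjustment over all of them and a threshold of 0.05. Errors after ± are limma's moderated SE. The precision rests on 3 arrays a group. Of the probe sets, 34945 had a single platform symbol (34741 matched to RefSeq by gene identifier), 932 several and 9160 none, and only single-symbol ones were named. The probe set with the highest mean stood for a gene in gene counts.

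The members and lists were chosen with earlier results of these data known. Named genes were all members, the 3 with the smallest p of each pathway list, Ppard, and the 5 nearest profiles to Socs2. The same step for Prlr could not be applied. Other names are marked in the text or are checks. The fit was tested on simulated data. Alternatives were median centring, a repeated quantile step, a filter at a mean log2 of 5, a variance trend, the replicate number as a block, the acinar covariate, control 1 alone (assumed to vary like the arrays labelled knockout), each array left out, control probe sets kept, and gene means.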

Additional observations from a re-analysis of the deposited data

How the results depend on the processing

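Over 306 refits of the 22 member probe sets, 271 kept direction and side of the threshold, 20 lost a call, 9 gained one and 6 changed sign. The sign changes were without control 1 for Stat5a 1450259_a_at (from -0.57 to 0.029 over the fits with 1 array left out) and for both Stat5b probe sets (from -0.33 to 0.0035 and from -0.29 to 0.0019), Bcl6 1421818_at against control 1 alone (-0.26), and Bcl6 1450381_a_at with the acinar covariate (-0.069) and against control 1 alone (-0.091). Gh changed sign without control 2 (from -0.017 to 0.18 with 1 array left out) and Stat2 against control 1 alone (-0.11). The count of member probe sets that rose ran from 6 to 9 with 1 array left out and from 6 to 11 over the other settings. By gene, 4 rose, and 4 to 5 with 1 array left out. With the acinar covariate 3 genes rose, with the variance trend or gene means 5, and against control 1 alone fewer than in the main fit. Over all probe sets the 321 rises and 83 falls became 669 and 234 with the variance trend, 202 and 44 with the replicate block, 105 and 26 with the acinar covariate, 46 and 8 against control 1 alone, and 130 to 493 and 19 to 290 with 1 array left out. With the low filter 152 fell. The causes were not tested.

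Replicate numbers do not pair the arrays: same-numbered deviations correlated at -0.054, 0.14 and 0.0045, and only control 2 was closest to its own number. With the replicate block the number of member probe sets that rose was again 9, with Ivd 1418238_at lost (adjusted p = 0.106) and Socs2 1442586_at gained (adjusted p = 0.0319). Outside the members Igfals was lost (adjusted p = 0.0682) and Tph2 gained (adjusted p = 0.0428).

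Control means under the array medians limit the folds of Tnfrsf11b 1449033_at and of 4 Socs2 probe sets, since RMA gives no detection call. Outside the members the same limit holds for Tph1, the Csf2rb probe sets and Cpxm2.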
